A study of Mus musculus with 38 samples.

Results

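The genes described here are the 4 mouse HOX clusters and the 3 Cdx genes, followed through fibroblast reprogramming with or without the signalling protein BMP4. Members were taken by symbol: Hoxa, Hoxb, Hoxc or Hoxd with a paralog number and nothing else (39 genes), plus Cdx1, Cdx2 and Cdx4. All 42 were found among 35976 genes in the larger bulk table, among 37108 in the smaller one and among 20695 in the single-cell table. HoxA holds 11 of them, HoxB 10, HoxC 9 and HoxD 9. Paralogs 1 to 4 are called anterior here (12 genes), 5 to 9 middle (15 genes) and 10 to 13 posterior (12 genes).

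HOX proteins are homeodomain transcription factors that give cells their position along the body and limb axes. Their genes sit in clusters in which order along the chromosome follows order along the body, and the anterior end is switched on first in the embryo. Polycomb complexes hold the clusters silent in pluripotent cells, and retinoic acid, WNT, FGF and GDF11 signals open them. CDX proteins are related homeodomain factors of the tail end of the embryo that bind and activate HOX genes, and CDX2 is also a factor of the trophectoderm. Cultured fibroblasts are known to keep the HOX code of the place they came from.

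The starting cells were embryonic fibroblasts (MEFs) from E13.5 embryos of OG2 males, which carry an Oct4-GFP transgene, and 129S4/SvJaeJ females. Heads, limbs, tails and inner organs had been removed, per the study's methods, and the fibroblasts came from the tissue left. From which part of the body the cells with posterior and limb members came was not tested. Retroviruses carried JGES (Jdp2, Glis1, Esrrb and Sall4), JGE (the same without Sall4), JGEO (JGE with Oct4, gene Pou5f1) or JGESO (all of these), and cells grew in iCD3 medium, which holds Vitamin C, mLIF, bFGF, CHIR99021 (a WNT activator), SGC0946 (a DOT1L inhibitor), an LSD1 inhibitor and Y27632. BMP4 was given at 10 ng/ml. JGES libraries come from day 0 and from days 1, 3, 5 and 7 without and with BMP4, and JGE, JGEO and JGESO libraries from day 7 without and with BMP4. SALL4WT or SALL4delN12, a form lacking the N-terminal residues through which SALL4 binds the NuRD repressor complex, was given alone in iCD3 medium without BMP4, with RNA-seq at days 1, 5, 9 and 11. That makes 23 bulk RNA-seq libraries. To these come 2 single-cell libraries of JGES cells at day 7, ATAC-seq peak lists (open chromatin) of MEFs and of both SALL4 forms at the same days, and day 6 Cut&Tag peak lists of both forms for SALL4 and for H3K27ac, a mark of active promoters and enhancers. Each RNA-seq group is 1 library, and each Cut&Tag list was called on merged replicates, so no difference below has a replicate check and none carries a p-value.

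Checks of the labels came first. Sall4 stood at 280 to 712 FPKM (a level scaled to transcript length and to library size) in JGES libraries without BMP4 and at 194 to 468 with it, against 2.09 and 6.23 in JGE. The day 0 library already held 650 FPKM, so it is a library after viral transduction and not untouched fibroblasts. Glis1 stayed at 0 to 1.13 FPKM in every library, including those given it. Id1, a direct target of BMP signalling, was at 135 FPKM in JGES cells at day 0, and over days 1 to 7 at 65.0 to 78.2 without BMP4 and at 233 to 293 with it, and at 48.8 and 188 in JGE. In JGEO it was at 81.1 without and 60.1 with BMP4, and in JGESO at 339 and 334, so in these pairs the library labelled with BMP4 was not higher in Id1. The single-cell libraries hold 8685 cells without BMP4 (median 12738 UMIs, or counted molecules) and 11335 with BMP4 (median 21205), and 2 barcodes occur in both.

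Upstream sequences are shown for 6 members: Hoxa13 and Hoxd13, the 2 posterior members higher with BMP4 in JGESO cells, Hoxa11, a posterior gene whose levels interleaved between the SALL4 forms, and Hoxb1, Cdx2 and Cdx4, which came on together in the JGES cells without BMP4. Each is the 250 bases before the RefSeq start on GRCm38.p6, read 5′ to 3′ on the gene's strand. In the first 3, capitals mark CpG dinucleotides, of which there are 35 at Hoxa13, 13 at Hoxa11 and 31 at Hoxd13. Hoxa13 lies at chr6:52260881-52261130 and Hoxa11 at chr6:52245811-52246060, both on the minus strand, and Hoxd13 at chr2:74667975-74668224 on the plus strand.
Hoxa13: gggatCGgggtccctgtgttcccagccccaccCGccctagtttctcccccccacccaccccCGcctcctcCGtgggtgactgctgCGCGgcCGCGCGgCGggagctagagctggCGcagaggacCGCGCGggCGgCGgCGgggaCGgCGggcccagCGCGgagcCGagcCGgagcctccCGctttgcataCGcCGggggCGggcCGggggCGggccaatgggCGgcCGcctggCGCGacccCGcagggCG
Hoxa11: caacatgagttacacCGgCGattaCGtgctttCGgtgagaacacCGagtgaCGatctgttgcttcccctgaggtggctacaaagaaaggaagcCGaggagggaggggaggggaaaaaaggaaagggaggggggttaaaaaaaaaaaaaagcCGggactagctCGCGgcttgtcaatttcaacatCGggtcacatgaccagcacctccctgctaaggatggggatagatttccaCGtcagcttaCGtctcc
Hoxd13: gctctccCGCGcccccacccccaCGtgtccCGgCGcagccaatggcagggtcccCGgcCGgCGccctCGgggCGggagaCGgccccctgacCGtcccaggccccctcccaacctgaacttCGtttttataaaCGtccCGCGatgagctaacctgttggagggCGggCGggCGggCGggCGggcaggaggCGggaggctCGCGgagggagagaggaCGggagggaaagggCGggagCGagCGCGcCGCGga

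In the other 3, capitals mark matches to the motifs searched. These were TTTATG (a core bound by CDX and posterior HOX proteins), TGATNNAT (a PBX with HOX site) and ATATT (a word within A/T-rich sequence of the kind SALL4 binds), each on both strands. Hoxb1 lies at chr11:96365508-96365757 on the plus strand, Cdx2 at chr5:147307250-147307499 on the minus strand and Cdx4 at chrX:103321148-103321397 on the plus strand.
Hoxb1: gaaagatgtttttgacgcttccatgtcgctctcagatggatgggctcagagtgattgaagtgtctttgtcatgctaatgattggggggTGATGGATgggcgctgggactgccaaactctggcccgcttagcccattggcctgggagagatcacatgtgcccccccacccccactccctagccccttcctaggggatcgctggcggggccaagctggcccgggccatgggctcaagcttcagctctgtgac
Cdx2: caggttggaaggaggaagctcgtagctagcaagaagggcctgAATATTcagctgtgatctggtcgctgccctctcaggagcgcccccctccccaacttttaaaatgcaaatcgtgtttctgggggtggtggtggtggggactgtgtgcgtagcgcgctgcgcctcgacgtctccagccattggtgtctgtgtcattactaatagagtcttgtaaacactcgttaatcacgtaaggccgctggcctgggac
Cdx4: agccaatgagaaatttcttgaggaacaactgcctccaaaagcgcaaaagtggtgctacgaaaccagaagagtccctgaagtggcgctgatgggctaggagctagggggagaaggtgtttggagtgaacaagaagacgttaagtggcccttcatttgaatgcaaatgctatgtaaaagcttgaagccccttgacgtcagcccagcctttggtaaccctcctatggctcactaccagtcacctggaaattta

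Hoxb1 holds 1 match to TGATNNAT, Cdx2 holds overlapping matches to ATATT on the 2 strands, and Cdx4 holds none of the 3 motifs in this window. Of the 42 members, 24 have a promoter in the RefSeq table, which has 27025 promoters in all. TTTATG occurred in 5 of the 24 (Hoxa7, Hoxb8, Hoxd3, Hoxd4 and Hoxd11) and in 11.1% of all promoters. TGATNNAT occurred in 3 (Hoxa2, Hoxb1 and Hoxb8) and in 7.91% of all, and ATATT in 3 (Hoxa7, Hoxd4 and Cdx2) and in 24.0% of all. The members' median was 12 CpGs per window against 6 over all promoters.

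At day 0 the fibroblasts carried a HOX code centred on the middle of the clusters. Of the 39 HOX genes 34 stood at 1 FPKM or more. Hoxa5, a gene of the lower neck and lung, was highest with 33.6 FPKM, followed by Hoxc8 with 33.3, Hoxc10 with 30.9 and Hoxa7 with 19.8. The highest of HoxB were Hoxb2 with 13.9 and Hoxb9 with 12.4, and those of HoxD Hoxd13 with 10.3 and Hoxd9 with 7.67. Middle genes made up 58.3% of the summed HOX FPKM, posterior genes 27.8% and anterior genes 13.9%. By cluster HoxA gave 34.8%, HoxC 33.8%, HoxB 19.2% and HoxD 12.2%. Hoxb1, Hoxb13, Hoxc12, Hoxd1 and the 3 Cdx genes were listed at 0.

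**Figure D1:**
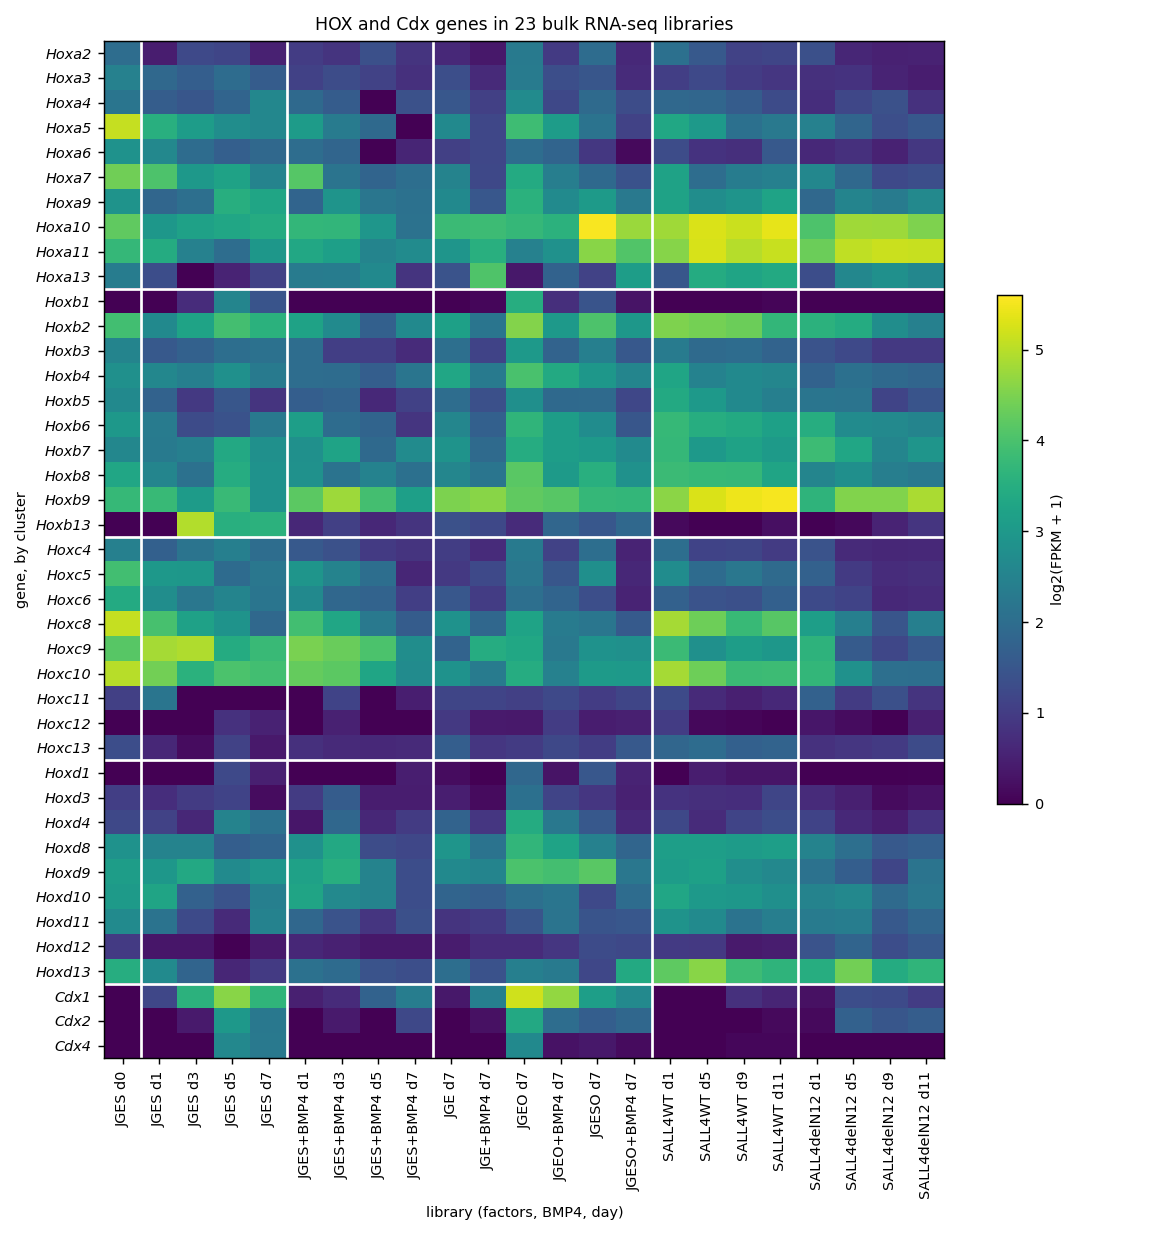
Level of 41 of the 42 members (lines, grouped by cluster) in each of the 23 bulk libraries (columns), as log2(FPKM + 1) in colour. Posterior genes sum to 113 to 145 FPKM in the SALL4WT libraries and to 42.8 to 60.5 in JGES libraries without BMP4 at days 1 to 7, and Hoxb1 and Cdx4 are brightest in the JGES library of day 5 and the JGEO library of day 7, both without BMP4 (4.89 and 10.2 FPKM for Hoxb1).

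Without BMP4, HOX RNA in JGES cells summed to 330 FPKM at day 0 and to 211, 189, 191 and 174 at days 1, 3, 5 and 7. The course differed along the clusters. In what follows a gene counts as higher or lower where log2(FPKM + 1) differed by at least 1 between libraries, among genes at 1 FPKM or more in either. At day 7 against day 0, 12 of 39 members that could be compared were lower (10.4% of all genes) and 6 higher (22.2% of all genes). The members' median difference was -0.72 and that of all genes 0.26. The 12 were 7 middle, 4 posterior and 1 anterior gene, and those higher included Hoxb1, Hoxb13 and the 3 Cdx genes. With BMP4, 24 of 36 were lower at day 7 than at day 0 (9.47% of all genes) and 2 higher (17.5%), the 2 being Cdx1 and Cdx2. The 24 were 12 of 15 middle, 7 of 9 posterior and 5 of 10 anterior members. In bulk RNA, fewer cells expressing a gene and less RNA per cell cannot be told apart.

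Some middle genes of HoxA and HoxC were below day 0 throughout. Hoxc8, a gene of the thoracic trunk, went from 33.3 FPKM at day 0 to 14.7, 8.17, 6.38 and 2.73 at days 1, 3, 5 and 7, a difference of -3.20 on the log2(FPKM + 1) scale. At day 1 against day 0, 8 of 35 members were already lower and 2 higher (9.28% and 11.8% of all genes), and 6 of the 8 were in HoxA. Hoxa5 went from 33.6 to 10.6, 7.55, 5.70 and 5.08. Hoxa7 went from 19.8 to 15.5, 6.91, 8.39 and 4.68. Each was below day 0 at all 4 later days, and for Hoxa5 most of the drop lay in the first day. Hoxc9, the neighbour of Hoxc8, did otherwise: 16.8 FPKM at day 0, 27.6 and 29.8 at days 1 and 3, then 9.89 and 12.9.

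Most posterior genes were lower than at day 0 by day 3. At day 3 against day 0, 9 of 10 posterior members were lower and 1, Hoxb13, was higher. Over all genes 10.5% were lower and 16.4% higher at that day. Hoxd13, a gene of the digits and hindgut, went from 10.3 FPKM at day 0 to 5.36, 2.51, 0.507 and 0.921. Hoxa11, a gene of the forearm and lower leg, went from 12.2 to 9.94, 4.53, 3.03 and 6.83, while its antisense transcript Hoxa11os went from 8.95 to 8.66, 2.82, 3.25 and 4.56. Whether the library kit keeps the strand is not given in the sources used here, so reads of Hoxa11 and Hoxa11os cannot be told apart. The days 1, 3, 5 and 7 comparisons share the one day 0 library.

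Hoxb13, the gene at the posterior end of HoxB and a factor of the tail and prostate, ran against its region. It was listed at 0 at days 0 and 1, stood at 30.01 FPKM at day 3, and at 10.6 and 11.03 at days 5 and 7. At day 3 it was the highest HOX gene of the library. Its difference from day 0 was 4.96 at day 3 and 3.59 at day 7.

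Some anterior genes were highest at day 5. Hoxb1, which sets the identity of the fourth rhombomere of the hindbrain, was listed at 0 at days 0 and 1 and stood at 0.632, 4.89 and 1.74 FPKM at days 3, 5 and 7. Hoxd1 was listed at 0 until day 3 and was at 1.35 and 0.409 at days 5 and 7. Both were above their day 0 level at day 5, where Hoxa2 (3.03 at day 0, 1.24 at day 5) and Hoxb3 (4.79 and 3.04) were not. Hoxd4, whose transcripts overlap Hoxd3, was at 1.31 at day 0 and at 4.67 at day 5.

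Cdx1 came first among the Cdx genes. It was listed at 0 at day 0 and was at 1.30, 11.1, 23.4 and 11.8 FPKM at days 1, 3, 5 and 7. Cdx2 was at 0.322 at day 3, 6.90 at day 5 and 3.73 at day 7. Cdx4 was listed at 0 until day 3 and was at 5.13 and 3.82 at days 5 and 7. The T gene (brachyury), a factor of the primitive streak and tailbud that is no member, was listed at 0 at days 0 and 1 and was at 3.51, 10.4 and 9.17 afterwards. Anterior genes made up 28.2% of HOX FPKM at day 5 against 13.9% at day 0.

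With BMP4, more members passed the fold on days 5 and 7 than on days 1 and 3. At day 1, 1 of 32 members was higher and 1 lower (3.75% and 5.72% of all genes). At day 3, 4 of 35 were higher and 2 lower (6.81% and 8.99%), with 9 higher and 4 lower at a pseudocount of 0.1, and 1 higher and 2 lower among the 17 at 5 FPKM or more. At day 5, 16 of 38 were lower and 2 higher (13.2% and 8.78%), and at day 7, 22 of 35 were lower and none higher (13.8% and 10.3%). The medians of the members at the 4 days were -0.07, 0.13, -0.87 and -1.13, against -0.02, -0.09, -0.18 and -0.14 over all genes. Summed HOX FPKM with BMP4 was 214, 191, 110 and 77.1 at days 1, 3, 5 and 7.

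**Figure D2:**
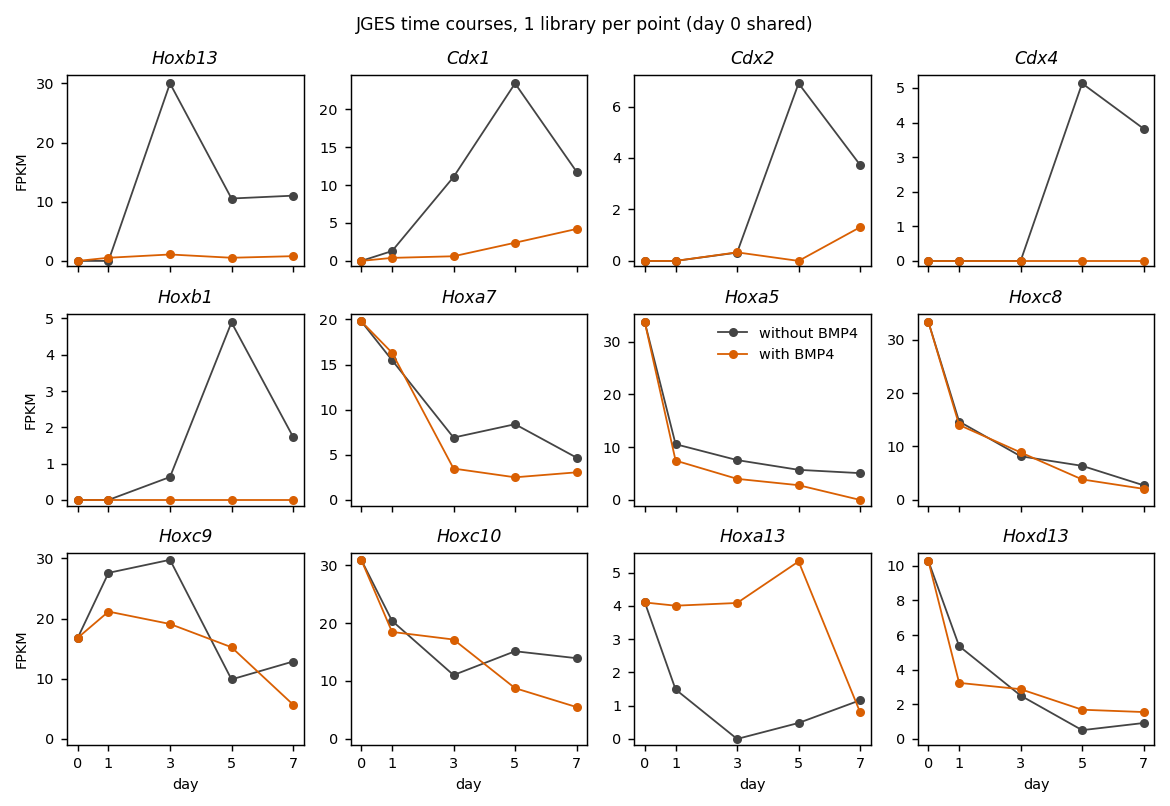
FPKM of 12 members by day in JGES cells without and with BMP4, each point 1 library, with the shared day 0 library as the starting point. Hoxb13, Cdx1, Cdx2, Cdx4 and Hoxb1 climb only in the series without BMP4 or far less with it (Cdx1 reached 23.4 FPKM without and 4.21 with BMP4), and Hoxa13 is higher with BMP4 at days 1, 3 and 5.

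The regions of the clusters differed in their timing. At day 5, 8 of 12 anterior members were lower with BMP4, against 4 of 15 middle and 1 of 8 posterior members. The posterior group also held the 2 that were higher, Hoxa13 and Hoxd10. At day 7 the groups were closer, with 6 of 9 anterior, 8 of 15 middle and 5 of 8 posterior members lower. By cluster at day 7, 5 of 6 HoxC, 6 of 10 HoxA, 4 of 6 HoxD and 4 of 10 HoxB members were lower, and so were all 3 Cdx genes.

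Hoxb1 was listed at 0 in all 4 libraries with BMP4, where the libraries without it reached 4.89. Cdx4 was also listed at 0 in all 4, against up to 5.13. Hoxb13 with BMP4 was at 0.533, 1.09, 0.532 and 0.802 FPKM at days 1, 3, 5 and 7, against 0, 30.01, 10.6 and 11.03 without. From day 3 on the series without BMP4 was above that with BMP4 at each day, with differences of -3.89, -2.91 and -2.74 for BMP4. Cdx1 with BMP4 was at 0.3997, 0.612, 2.396 and 4.21, below the series without BMP4 at each of the 4 days. Cdx2 with BMP4 was at 0, 0.333, 0 and 1.31.

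Hoxa13, a gene of the digits, hindgut and genital tract at the posterior end of HoxA, went the other way until day 5. It stood at 4.11 FPKM at day 0. Without BMP4 it was at 1.49, 0, 0.481 and 1.16 at days 1, 3, 5 and 7, and with BMP4 at 4.01, 4.09, 5.34 and 0.804. So with BMP4 it stayed near its day 0 level until day 5. The bulk pair of day 7 did not show a higher level with BMP4, unlike the single cells of that day described further on.

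Hoxa5 at day 7 and Hoxa4 and Hoxa6 at day 5 are listed at 0 with BMP4, where the days before held 2.79, 2.10 and 2.55 FPKM. The 3 genes overlap transcripts of Hoxa3, and an exact 0 in such a table can be an estimate that failed. Over all single cells with BMP4 at day 7 Hoxa5 was at 1.79 CPM (counts of UMIs scaled to a fixed total per group). The difference of -2.60 for Hoxa5 at day 7 therefore rests on a listed 0. Other values with BMP4 were above 0: Hoxc8 was at 14.0, 8.89, 3.83 and 2.07 FPKM against 14.7, 8.17, 6.38 and 2.73, and Hoxc10 at 18.5, 17.1, 8.76 and 5.50 against 20.4, 11.02, 15.1 and 13.9. Hoxb9 at day 3 was at 26.3 with BMP4 and 7.42 without.

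Markers of other cells differed with BMP4 in the same libraries. At day 7 all 8 pluripotent markers compared were lower with BMP4, 5 of 10 fibroblast markers, 5 of 8 primitive endoderm markers and 4 of 7 trophoblast markers were higher. Against day 0, 8 of 10 fibroblast markers were lower at day 7 without BMP4. The part of these cell mixtures in the bulk differences was not tested in bulk, and the single cells below give the members within cell types.

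The other factor sets were compared with and without BMP4 at day 7. With JGEO, 15 of 40 members were lower with BMP4 (1.95% of all genes) and 2 higher (2.26%). The 15 were 9 of 12 anterior, 3 of 15 middle and 1 of 10 posterior members, with Cdx2 and Cdx4. With JGESO, 8 of 38 were lower (3.52%) and 2 higher (5.29%): 4 of 11 anterior and 4 of 14 middle members were lower, and the 2 higher were among 11 posterior members. With JGE, 3 of 32 were lower (4.78%) and 3 higher (4.28%), which became 12 lower and 3 higher with a pseudocount of 0.1. Over the 29 members that could be compared in all 4 factor sets, 18 were lower with BMP4 in each of the 4 and none was higher in each, against 6.89% and 7.45% of the 11478 genes compared. All 7 anterior members were among the 18, with 10 of 14 middle members and 1 of 7 posterior members, Hoxc10. In this count a difference of any size counts. As given above, Id1 was not higher in the JGEO and JGESO libraries labelled with BMP4.

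Hoxb1 in JGEO was at 10.2 FPKM without and 0.694 with BMP4, and in JGESO at 1.73 and 0.218. In JGE it was at 0 and 0.0640. Hoxb2, the neighbour of Hoxb1, was at 22.7 and 7.21 in JGEO, 15.5 and 6.82 in JGESO, 8.02 and 3.54 in JGE and 10.99 and 5.35 in JGES, so it was lower with BMP4 in each of the 4 pairs. Hoxc4 was at 3.92 and 1.14, 3.09 and 0.462, 1.02 and 0.617, and 3.01 and 0.793 in the same order.

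Hoxa13 was at 1.68 without and 15.7 with BMP4 in JGE, 0.285 and 2.37 in JGEO, and 1.16 and 7.65 in JGESO. It was the only member higher by the fold in those 3 pairs, and at day 7 the JGES pair was the one bulk pair without it. Hoxd13 was at 1.28 without and 9.58 with BMP4 in JGESO, and at 3.07 and 1.66 in JGE and 4.36 and 3.95 in JGEO. Cdx1 was at 0.288 and 4.36 in JGE, so it was higher with BMP4 there, and at 35.8 and 25.04 in JGEO and 7.77 and 5.26 in JGESO.

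Without BMP4, JGEO held more RNA of many anterior and some middle genes and of the Cdx genes than JGE. JGEO held 286 FPKM of HOX RNA against 149 in JGE, and 18 of 40 members were higher and 1 lower (10.2% and 11.9% of all genes), a comparison added after the values were seen. The 18 were 9 of 12 anterior members, 6 of 15 middle members and the 3 Cdx genes, and none of 10 posterior members. Hoxb1 was at 0 in JGE and 10.2 in JGEO, Hoxd4 at 2.44 and 9.93, Cdx1 at 0.288 and 35.8, Cdx2 at 0 and 9.47, and Cdx4 at 0 and 5.30. Pou5f1 itself was at 0 in JGE and 1570 in JGEO. In the pair with Sall4, for which no count of members was made, Hoxb1 was at 1.70 in JGES and 1.73 in JGESO, and Cdx1 at 11.5 and 7.77.

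With Sall4 added to JGE, 11 of 37 members were higher and 7 lower at day 7 (20.1% and 16.9% of all genes). Hoxb13 was at 1.63 FPKM in JGE and 10.7 in JGES, and Hoxb9 at 21.6 and 6.05. Cdx1 was at 0.288 and 11.5, Cdx2 at 0 and 3.64, and Cdx4 at 0 and 3.72. With Sall4 added to JGEO, 14 of 41 were lower and 2 higher (20.7% and 7.48%). The 2 were neighbours at the posterior end of HoxA: Hoxa10 at 12.3 in JGEO and 45.6 in JGESO, and Hoxa11 at 4.48 and 23.4. Cdx1 was lower with 35.8 against 7.77. Other delivered factors differed in these pairs too. Pou5f1 was at 1570 FPKM in JGEO and 369.6 in JGESO, Jdp2 at 1290 and 319.7 and Esrrb at 384.1 and 108.8. Between JGE and JGES, Jdp2 was at 1722 and 228.1 and Esrrb at 561.2 and 166.5. The part of these levels in the members' differences was not tested. These comparisons were made within the table of 8 libraries, which holds the JGES day 7 libraries again on its own scale.

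With SALL4 alone, HOX RNA was higher with the intact form. HOX RNA summed to 328, 321, 281 and 286 FPKM at days 1, 5, 9 and 11 with SALL4WT and to 182, 194, 156 and 167 with SALL4delN12. Sall4 itself was at 549, 491, 518 and 290 FPKM with SALL4WT and at 809, 623, 971 and 428 with SALL4delN12. The part of the Sall4 level in the members' differences was not tested. With SALL4delN12, 8 of 34 members were lower at day 1 and none was higher (5.63% and 4.18% of all genes). At day 5, 7 of 33 were lower and 2 higher (5.19% and 4.67%), at day 9, 12 of 34 and 1 (5.75% and 6.09%), and at day 11, 9 of 33 and 2 (6.58% and 6.55%). With a pseudocount of 0.1, 13, 13, 19 and 15 were lower and 0, 3, 3 and 2 higher at the 4 days. Of the 29 members that could be compared at all 4 days, 25 were lower with SALL4delN12 at each, counting differences of any size, against 20.7% of 12050 genes. Hoxd12 was the 1 member of the 29 higher at each of the 4 days, against 19.1% of genes. Without the low filter 30 of 42 members were lower at each day and 4 higher, Cdx1 and Cdx2 among the 4. The 4 days are points of 1 culture series and not replicates. Within the series from day 1 to day 11, 3 of 34 members were lower and 1 higher with SALL4WT (8.76% and 11.5% of all genes), and 4 of 31 were lower and 3 higher with SALL4delN12 (4.61% and 10.4%), which became 13 lower and 3 higher with a pseudocount of 0.1. Hoxa13 was higher and Hoxc10 lower in both.

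**Figure D3:**
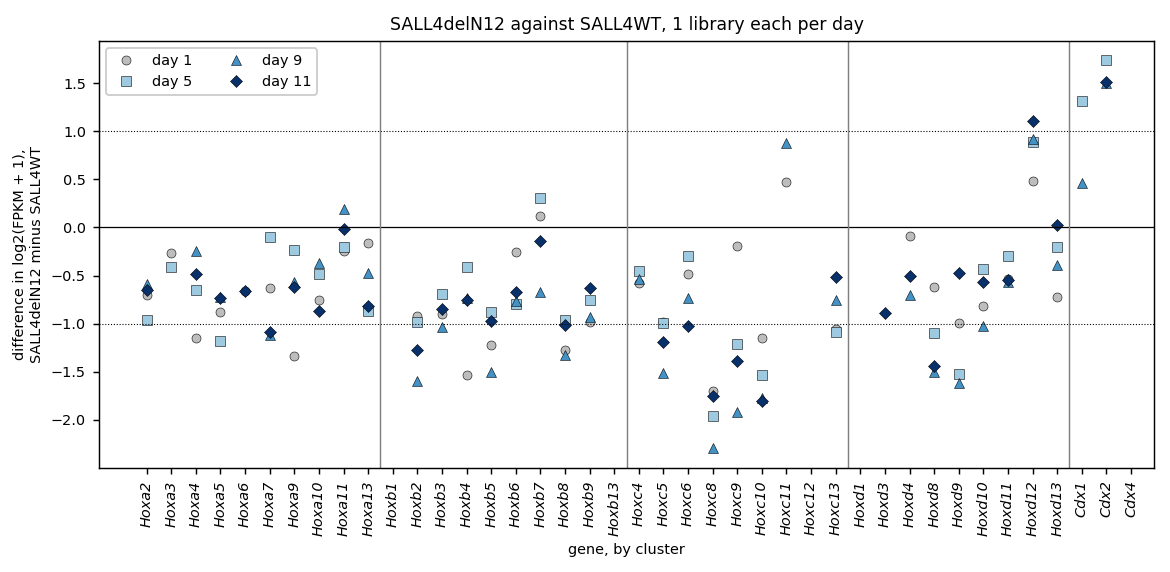
Difference in log2(FPKM + 1), SALL4delN12 minus SALL4WT, for each member that could be compared at days 1, 5, 9 and 11, in cluster order, with dotted lines at the fold that counts as past. Most points lie below 0, the lowest are those of Hoxc8 (-2.29 at day 9), Hoxc9 and Hoxc10, and the points of Hoxd12, Cdx1 and Cdx2 lie above 0.

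HoxC differed most at day 11. There, 5 of 6 HoxC members were lower with SALL4delN12 (median -1.29), against 2 of 8 in HoxB, 1 of 10 in HoxA and 1 of 8 in HoxD. HoxC did not stand out in this way at day 1. At that day Hoxc11 was higher with SALL4delN12 (2.35 against 1.41 FPKM), and Hoxb4 of HoxB was lower (2.38 against 8.77). Hoxc8 was at 27.7, 19.7, 12.6 and 16.8 FPKM with SALL4WT and at 7.82, 4.32, 1.77 and 4.31 with SALL4delN12, so the 2 series did not overlap. Hoxc10 was at 27.9, 19.6, 13.2 and 13.3 against 12.01, 6.09, 3.16 and 3.09, also without overlap. Hoxc9 was at 13.1, 6.02, 7.65 and 6.76 against 11.3, 2.03, 1.28 and 1.97, close at day 1 and apart afterwards. HoxC made up 25.8% of HOX FPKM at day 1 and 16.1% at day 11 with SALL4WT, and 22.0% and 8.29% with SALL4delN12.

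In HoxB 7 of 8 members were lower with SALL4delN12 at all 4 days, and in HoxD 4 of 6, namely Hoxd8, Hoxd9, Hoxd10 and Hoxd11. Hoxb2 was at 21.9, 20.6, 19.4 and 12 with SALL4WT and at 11.1, 9.91, 5.74 and 4.39 with SALL4delN12. Hoxb8, a thoracic gene, was at 13.2, 12.4, 12.2 and 8.69 against 4.88, 5.90, 4.27 and 3.78. Hoxd8 was at 7.76, 7.86, 7.42 and 7.76 against 4.71, 3.13, 1.97 and 2.22. None of the 3 overlapped between the forms.

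At the posterior end of HoxA and HoxD, Hoxa11 and Hoxd13 were near between the forms, and Hoxa10, Hoxa13, Hoxd10 and Hoxd11 were lower with SALL4delN12 at all 4 days. Hoxa11 was at 23.1, 37.3, 30.3 and 34.2 FPKM with SALL4WT and at 19.3, 32.3, 34.8 and 33.9 with SALL4delN12, where the 2 series interleave. Hoxd13 was at 17.6, 23.4, 13.3 and 11.4 against 10.2, 20.2, 9.84 and 11.7, lower at 3 of the 4 days. Hoxa13 was above its day 1 level later in both series, at 1.82, 9.95, 8.72 and 9.54 with SALL4WT and 1.51, 4.997, 5.99 and 4.995 with SALL4delN12. Hoxa11os was at 18.3 to 39.1 with SALL4WT and 28.8 to 54.8 with SALL4delN12. Posterior genes made up 39.8% of HOX FPKM at day 1 and 52.2% at day 11 with SALL4delN12, and 36.0% and 43.2% with SALL4WT.

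Hoxb9, a thoracic gene, was the highest HOX gene at days 5, 9 and 11 with SALL4WT (38.1, 43.1 and 45.2 FPKM, after 23.7 at day 1), against 22.2, 22.1 and 28.8 with SALL4delN12, where Hoxa11 was highest at all 4 days. Hoxa10 was at 26.7, 37.9, 34.6 and 41.1 against 15.4, 26.9, 26.6 and 22.0. Both genes were lower with SALL4delN12 at each day without passing the fold on any.

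Cdx2 and Cdx1 went against the HOX genes. Cdx2 was at 0, 0, 0 and 0.107 FPKM with SALL4WT and at 0.105, 2.34, 1.84 and 2.15 with SALL4delN12. Cdx1 was at 0, 0, 0.721 and 0.493 against 0.194, 1.495, 1.38 and 0.999. Hoxd12 was at 0.938, 0.896, 0.332 and 0.363 against 1.72, 2.52, 1.52 and 1.94. At day 11, 4 of 6 trophoblast markers and 8 of 8 primitive endoderm markers compared were higher with SALL4delN12, and 4 of 10 fibroblast markers were lower. Id1 was at 374 to 577 FPKM with SALL4WT and 214 to 261 with SALL4delN12. The part of these cell types and of Id1 in the members' differences was not tested.

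Peaks at the promoters were counted within 2000 bases of each start in the annotation. In untouched MEFs 31 of the 42 members had an ATAC-seq peak, where 66.8% of all genes had one. With SALL4WT 20, 27, 24 and 27 members had one at days 1, 5, 9 and 11 (60.6%, 64.8%, 64.1% and 64.5% of all genes), and with SALL4delN12 20, 20, 27 and 24 (58.3%, 60.3%, 61.9% and 62.4%). Counting only peaks with a score of 100 or more, 21 members had one in MEFs (62.1% of all genes), 6, 18, 16 and 18 with SALL4WT (52.1%, 59.5%, 57.9% and 59.1%) and 13, 9, 13 and 14 with SALL4delN12 (51.0%, 52.4%, 55.7% and 55.8%). The 3 Cdx genes had no promoter peak in any of the 13 lists, including the SALL4delN12 lists of days 5 to 11, when Cdx2 RNA was at 1.84 to 2.34 FPKM.

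**Figure D4:**
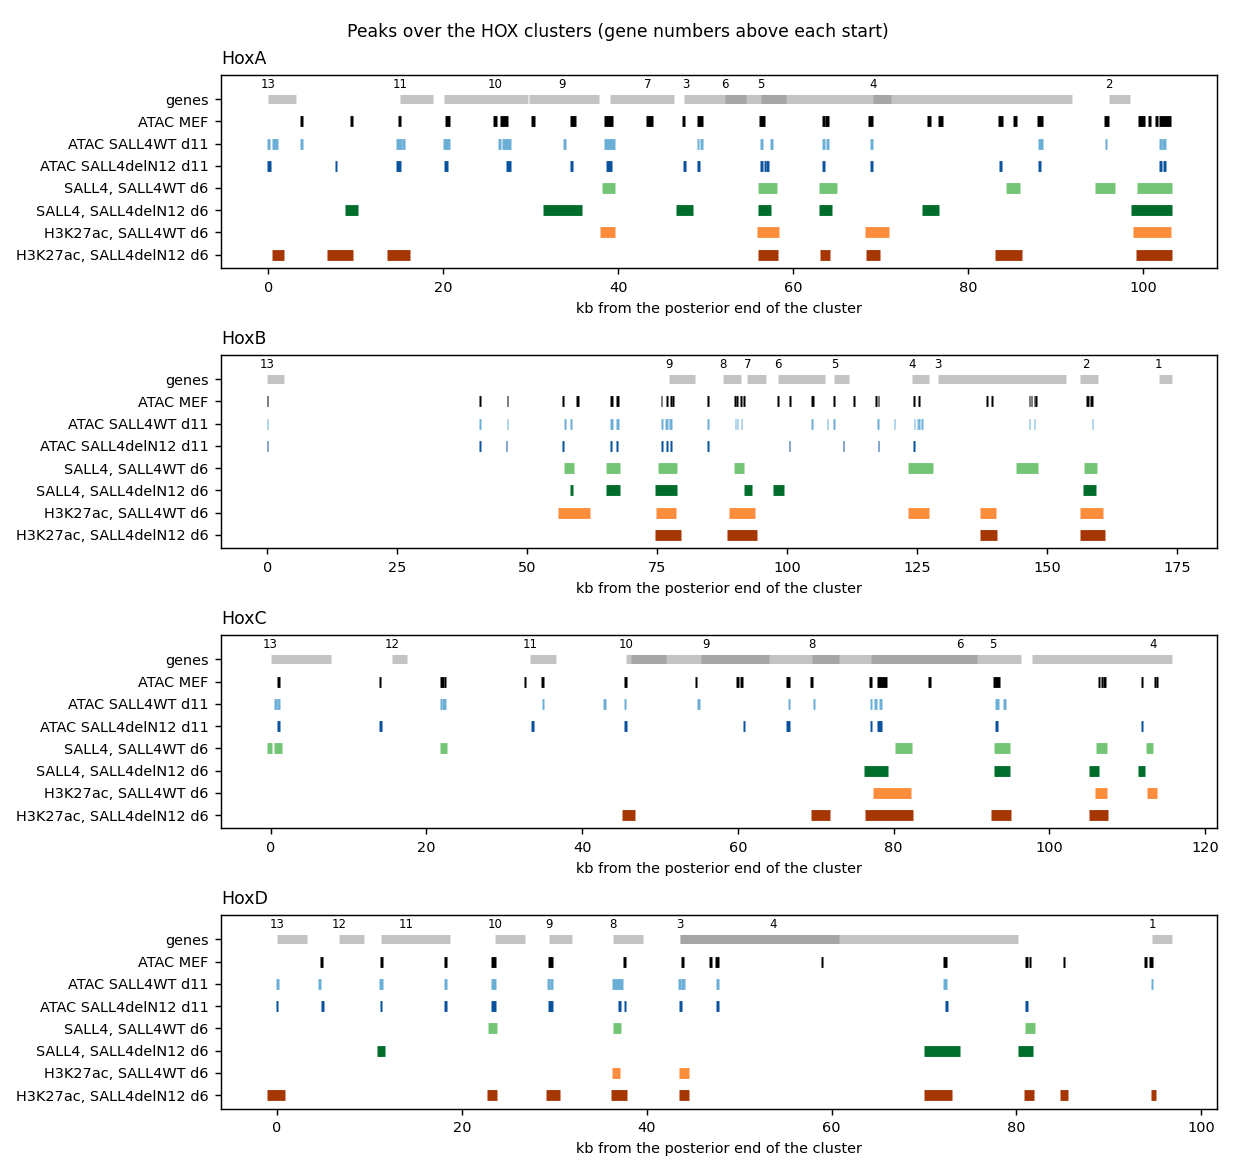
Peaks along the 4 clusters as distance in kilobases from the posterior end, for 7 of the 13 lists (ATAC-seq of MEFs and of day 11, and the day 6 Cut&Tag lists), with grey bars for the genes and their paralog numbers. HoxC has 12 ATAC-seq peaks at day 11 with SALL4delN12 against 16 with SALL4WT, and HoxD has 9 H3K27ac peaks with SALL4delN12 against 2 with SALL4WT.

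ATAC-seq coverage of HoxB, HoxC and HoxD was lower with SALL4delN12 at each day. The 115750 bases of HoxC held 22 peaks in MEFs, 20, 16, 14 and 16 with SALL4WT and 11, 6, 6 and 12 with SALL4delN12. They covered 3.61%, 2.90%, 2.68% and 3.24% of the cluster with SALL4WT and 2.80%, 1.41%, 0.815% and 2.19% with SALL4delN12, lower at each day. HoxB was covered to 1.66%, 2.59%, 2.71% and 4.12% with SALL4WT and to 1.32%, 1.77%, 2.60% and 1.99% with SALL4delN12. HoxD was covered to 2.10%, 4.74%, 4.28% and 5.09% against 1.96%, 2.49%, 2.93% and 2.68%. The widest gap of HoxC was at day 9, and at day 11 those of HoxB and HoxD were wider. HoxA was covered to 5.56%, 8.66%, 7.12% and 8.45% against 4.80%, 3.95%, 7.44% and 5.43%, lower at 3 of the 4 days, and held 22, 27, 17 and 21 peaks against 16, 16, 26 and 19. The lists held 83821 to 98422 peaks with SALL4WT and 78517 to 94828 with SALL4delN12 in the whole genome. These covered 22215364, 28891026, 28031021 and 27994187 bases with SALL4WT and 26319485, 23652162, 27028118 and 21918192 with SALL4delN12, so the coverage of the whole genome was also lower with SALL4delN12 at days 5, 9 and 11, and higher at day 1. Its part in the cluster differences was not tested.

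The Hoxa13 promoter, whose sequence is above, had no peak in MEFs or at day 1 with either form. It had one at days 5, 9 and 11 with both, with scores of 169, 122 and 168 for SALL4WT and 53, 56 and 224 for SALL4delN12 (the peak caller's score, a p-value on a log scale, higher for stronger peaks). Those are the days at which Hoxa13 RNA was above its day 1 level in both series. The Hoxc8 promoter had a peak in MEFs and at days 1 and 11 with SALL4WT, and in none of the 4 lists of SALL4delN12.

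SALL4 peaks lay at 13 member promoters with SALL4WT and at 10 with SALL4delN12 (52.1% and 38.9% of all genes), so members had fewer than genes at large. With a score of 100 or more the order of the forms reversed, with 2 members for SALL4WT and 7 for SALL4delN12, both still under the share of all genes. Anterior and middle genes held 11 of the 13 and all of the 10. H3K27ac peaks lay at 12 promoters with SALL4WT and 18 with SALL4delN12 (48.2% and 57.3%), or 5 and 11 with a score of 100 or more (38.5% and 51.6%). Posterior promoters held none of the 12 and 5 of the 18: Hoxa11, Hoxa13, Hoxc10, Hoxd10 and Hoxd13. Hoxb3, Hoxb4 and Hoxc4 had an H3K27ac peak with SALL4WT and not with SALL4delN12. Those peaks were weak, with the same score of 60.6 at Hoxb3 and Hoxb4 and 54.0 at Hoxc4, all under 100.

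In HoxD H3K27ac covered 1878 bases with SALL4WT and 12053 with SALL4delN12, or 1.94% and 12.4% of the cluster. In HoxB it was the reverse, with 26672 and 18457 bases. The H3K27ac list of SALL4WT held 19841 peaks in the genome and that of SALL4delN12 45599, covering 34915339 and 74441387 bases, so the lists differ in how much was called, and replicates had been merged before calling. The posterior acetylation peaks at Hoxd10 and Hoxc10 stood beside RNA that was lower with SALL4delN12 at each day (Hoxc10 at 3.09 against 13.3 FPKM at day 11, Hoxd10 at 3.64 against 5.89).

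In single cells at day 7, HOX RNA was highest in the cells the authors call intermediate. The authors assigned the cell types from expression in these same cells, so differences between types are a description, and the cluster their table calls ParE is read here as the study's primitive endoderm-like cells (PrECLCs). Marker sums were highest where the names place them: pluripotent markers summed to 7233 CPM in the pluripotent cells and 366 in intermediate cells of the same library, and primitive endoderm markers to 2878 CPM in PrECLCs with BMP4. Summed HOX RNA without BMP4 was 460 CPM in the 6211 intermediate cells (455 to 464, exact 95% Poisson interval), 159 in 507 endothelial cells, 77.8 in 142 PrECLCs and 68.6 in 1825 pluripotent cells. With BMP4 it was 216 CPM (214 to 218) in 7125 intermediate cells, 94.2 in 1453 endothelial cells, 68.4 in 2372 PrECLCs and 52.4 in 385 placenta-like cells. These intervals, and all below, cover counting error only.

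Within the intermediate cells, which both libraries share, HOX RNA was lower with BMP4 in each cluster. HoxA was at 109 CPM without and 39.01 with BMP4, HoxB at 136 and 68.8, HoxC at 175 and 92.8 and HoxD at 39.2 and 15.6, and the 3 Cdx genes summed to 23.5 and 4.96. By region anterior genes were at 75.9 and 26.7, middle genes at 240 and 139 and posterior genes at 144 and 50.1. Of the 39 members with at least 50 UMIs in either group, 27 were lower by at least 2-fold with BMP4 and 3 higher, where 8.45% and 30.5% of all genes were. The members' median log2 ratio was -1.44 and that of all genes 0.50. In the same cells fibroblast markers summed to 219 CPM without and 1158 with BMP4 and pluripotent markers to 366 and 23.4, so the 2 intermediate groups differ in more than these genes, and the part of that in the result was not tested.

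**Figure D5:**
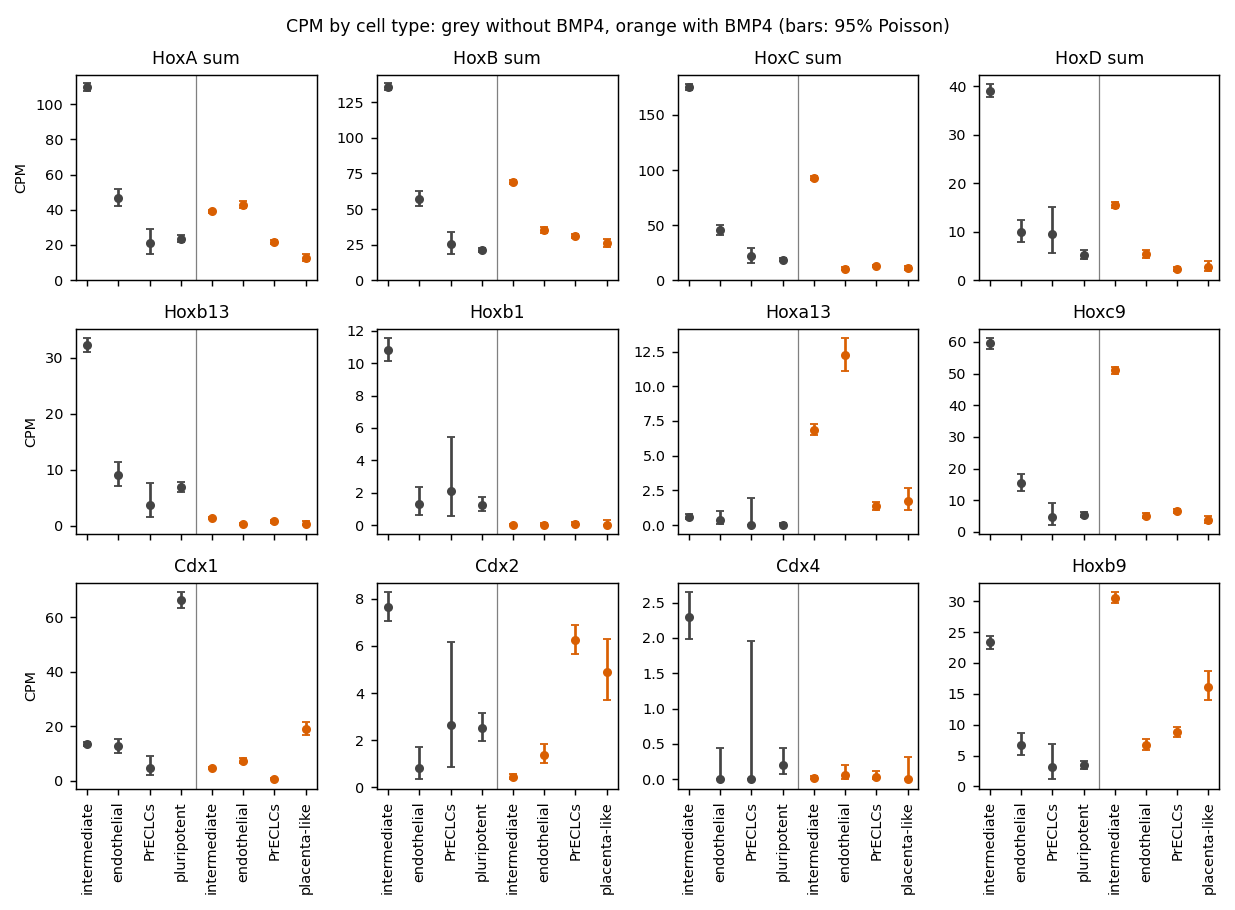
CPM (scaled UMI counts) of the 4 cluster sums and 8 members in each cell type of the 2 single-cell libraries at day 7, with exact 95% Poisson intervals as bars. Hoxb1, Hoxb13, Cdx2 and Cdx4 are highest in intermediate cells without BMP4, Hoxa13 in endothelial cells with BMP4 and Cdx1 in pluripotent cells, and other types hold lower levels of some of them, such as Hoxb13 at 9.03 CPM in endothelial cells without BMP4 and Cdx1 at 19.03 in placenta-like cells.

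The largest differences were those of Hoxb1, Cdx4, Hoxd1, Hoxb13 and Cdx2. Hoxb1 had 900 UMIs in intermediate cells without BMP4 and 5 with it, or 10.8 CPM (10.1 to 11.5) and 0.0310 (0.0101 to 0.0725), 348-fold lower. Cdx4 had 191 and 2 UMIs, or 2.30 CPM (1.98 to 2.65) and 0.0124 (0.00150 to 0.0449). Hoxb13 was at 32.3 CPM (31.1 to 33.5) without and 1.37 (1.19 to 1.56) with BMP4, 23.6-fold lower. Cdx2 was at 7.66 (7.08 to 8.28) and 0.435 (0.339 to 0.549), and Hoxd1 at 2.14 (1.84 to 2.48) and 0.0683 (0.0341 to 0.122). None of these intervals overlap. Each of the 5 was also lower with BMP4 in the bulk library of day 5 from JGES cells. At day 7 the same held for Hoxb1, Cdx4, Hoxb13 and Cdx2. Hoxd1 was near equal there, at 0.409 FPKM without and 0.377 with BMP4, both under the limit of 1 FPKM.

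Several genes of HoxA and HoxC were lower by smaller ratios. Hoxa9 was at 24.8 CPM without and 3.31 with BMP4, 7.48-fold lower, Hoxa5 5.07-fold, Hoxc10 3.57-fold, Hoxa7 3.03-fold, Hoxa10 2.72-fold and Hoxc8 2.50-fold. Hoxc9, the member with most UMIs, was at 59.6 and 51.1 CPM, 1.17-fold lower. Hoxb4 and Hoxb7 were 1.47-fold and 1.49-fold lower, and Hoxb9 was at 23.3 and 30.6 CPM, 1.31-fold higher. So the ratio went from 1.17-fold at Hoxc9 to 3.57-fold at its neighbour Hoxc10.

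Hoxa13 was the main exception. In intermediate cells it was at 0.613 CPM (0.456 to 0.806) without and 6.86 (6.46 to 7.28) with BMP4, 11.2-fold higher. In endothelial cells it had 3 UMIs without and 428 with BMP4, or 0.356 CPM (0.0735 to 1.04) and 12.2 (11.1 to 13.47). Hoxa11 in endothelial cells was at 1.78 and 6.498 CPM, 3.65-fold higher, and in intermediate cells at 3.80 and 3.97. Over all cells Hoxa13 was at 0.439 CPM without and 6.08 with BMP4, unlike the bulk day 7 pair of 1.16 and 0.804 FPKM. Hoxd4, with 6 UMIs without and 104 with BMP4 in intermediate cells, was also 8.95-fold higher, where the bulk pair was at 3.27 and 0.959 FPKM. For Hoxa13 and Hoxd4 the bulk and single-cell pairs of day 7 go opposite ways. The third member higher in intermediate cells was Hoxc13, at 0.794 CPM without and 2.19 with BMP4, 2.76-fold higher.

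In endothelial cells 16 members had enough UMIs, and 4 were lower and 2 higher with BMP4 (4.10% and 25.3% of all genes). Hoxb13 was 31.5-fold lower, Hoxc10 6.88-fold, Hoxb2 3.28-fold and Hoxc9 3.01-fold. HoxC summed to 45.3 CPM without and 10.6 with BMP4, and HoxA to 46.7 and 43.0. In the same cells endothelial markers summed to 263 CPM without and 596 with BMP4, pluripotent markers to 313 and 18.1 and fibroblast markers to 79.7 and 170. The 2 endothelial groups thus differ in more than the members. The part of that in these values, and in those of Hoxa13 and Hoxa11 above, was not tested. Over all cells of the libraries 26 of 39 members were lower and 2 higher with BMP4 (9.78% and 30.9%).

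The cell types differed from the intermediate cells in which members they kept. With BMP4, PrECLCs were lower by at least 2-fold in 23 of 34 members and higher in 1 (25.8% and 12.5% of all genes). The 1 was Cdx2, at 6.25 CPM (5.64 to 6.91) against 0.435, 14.4-fold higher. Hoxd11, Hoxc6 and Hoxc8 were 11.7-fold, 10.4-fold and 8.92-fold lower, but Hoxa7 (7.57 against 7.40 CPM) and Hoxb7 (9.68 against 8.36) were at about the same level. The part of free RNA in the low values, such as Hoxc8 at 1.30 CPM in PrECLCs, was not tested.

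Placenta-like cells were lower in 28 of 34 members and higher in 2 (20.4% and 12.9%). The 2 were Cdx2 at 4.88 CPM (3.71 to 6.31), 11.2-fold higher, and Cdx1 at 19.03 (16.6 to 21.7), 4.22-fold higher. Hoxb9 was their highest HOX gene at 16.2 CPM, against 30.6 in intermediate cells. Endothelial cells with BMP4 were lower in 14 of 34 members and higher in 1, Cdx2 (25.1% and 9.97%). All 14 belong to HoxB, HoxC and HoxD, with Hoxc8 16.9-fold, Hoxd13 15.8-fold and Hoxc6 14.4-fold lower, where the HoxA members with at least 50 UMIs in either group stayed within 1.79-fold of the intermediate cells.

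Pluripotent cells without BMP4 were lower in 35 of 38 members and higher in 1 (21.9% and 11.3%). The 1 was Cdx1, at 66.1 CPM (63.2 to 69.1) against 13.53 (12.8 to 14.3), 4.89-fold higher. It had a UMI in 48.2% of pluripotent cells, at a median of 15444 UMIs, and in 11.7% of intermediate cells, at a median of 11892. After thinning to 4000 UMIs the shares were 19.7% (17.9% to 21.6%) and 4.67% (4.16% to 5.22%). Hoxa13 had no UMI in the 1825 pluripotent cells. Hoxc13, at 1.31 against 0.794 CPM, did not pass the fold in either direction. The part of free RNA in these values was not tested. Endothelial cells without BMP4 were lower in 29 of 38 members and higher in none (13.4% and 5.16%).

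To compare cells at 1 depth, each cell was thinned to 4000 UMIs. Intermediate cells then held a mean of 1.51 HOX genes without BMP4 and 0.721 with it, and 28.8% and 53.4% of cells held none. The most in a single cell was 11 without and 10 with BMP4. Before thinning the share with none was 9.72% and 17.9%. Pluripotent cells held none in 79.2% of cells after thinning, PrECLCs with BMP4 in 79.8%.

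Within the intermediate cells without BMP4, cells with Hoxb1 had Cdx2, Hoxd1 and Cdx4 more often than cells without it. Cells with Cdx2 likewise had Cdx1 and Cdx4 more often. Other pairs among Hoxb1, Hoxd1 and the Cdx genes were not counted. Pairs were chosen after their counts were seen, in thinned cells, and intervals are exact binomial ones. Of 209 cells with Hoxb1, 31 or 14.8% (10.3% to 20.4%) had Cdx2, against 1.95% (1.61% to 2.33%) of the cells without Hoxb1. Hoxd1 was in 5.74% of them (3.002% to 9.82%) against 0.650%. Of 148 cells with Cdx2, 20.9% (14.7% to 28.4%) had Cdx1 against 4.27%, and 7.43% (3.77% to 12.9%) had Cdx4 against 0.561%. Cells with Hoxb1 also had Hoxc10, a posterior gene, more often, at 22.0% (16.6% to 28.2%) against 13.8% (12.9% to 14.7%).

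Hoxb13 was seen less often in cells with Hoxb1, and cells with Hoxb13 held Hoxc9 and Hoxc10 less often. Of the 209 cells with Hoxb1, 3.35% (1.36% to 6.78%) had Hoxb13, against 8.33% (7.64% to 9.06%) of the rest. Of 507 cells with Hoxb13, 6.90% (4.86% to 9.47%) had Hoxc9 against 17.1% (16.1% to 18.1%), and 6.31% had Hoxc10 against 14.7%. Hoxa10 was in 10.7% of them and in 10.3% of the rest, which overlap. Hoxc9 and Hoxc10, neighbours in HoxC, were together: 27.2% (24.5% to 30.04%) of 1008 cells with Hoxc9 had Hoxc10, against 11.5% (10.6% to 12.4%).

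With BMP4, cells with Hoxa13 held its neighbours Hoxa11 and Hoxa10 more often and Hoxc9 less often. No other partners of Hoxa13 were counted. Of 199 intermediate cells with Hoxa13, 7.04% (3.90% to 11.5%) had Hoxa11 against 1.52% (1.24% to 1.83%) of the rest, and 11.6% (7.47% to 16.8%) had Hoxa10 against 4.52%. Hoxc9 was in 4.52% (2.09% to 8.41%) of them and in 13.9% (13.1% to 14.8%) of the rest. Hoxc8 was in 9.15% of cells with Hoxc9 and in 2.89% of those without. All cells of a library share 1 culture, so these shares describe 2 cultures.

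The lists of upstream regulators each held genes that differed with time, and the Polycomb group is given first. At day 7 without BMP4, 8 of 18 measured Polycomb genes were higher than at day 0 and 1 lower (22.2% and 10.4% of all genes, as above). Suz12, a core subunit of PRC2, was at 21.6 FPKM at day 0 and 73.97 at day 7, Jarid2, which recruits PRC2, at 5.78 and 40.7, and Phc1, a PRC1 subunit, at 9.501 and 46.5. Bmi1, another PRC1 subunit, was at 9.05 and 2.74. With BMP4 at day 7, 5 of 18 were lower and 1 higher than without (13.8% and 10.3%), Phc1 at 8.47 against 46.5 and Suz12 at 31.8 against 73.97. The single cells did not show a lower Polycomb sum with BMP4: it was 432 CPM without and 487 with BMP4 in intermediate cells, and 512 and 567 over all cells. In pluripotent cells without BMP4 the sum was 773 CPM, and the part of these cells in the bulk differences was not tested. Between the SALL4 forms at day 11, 1 of 16 was higher with SALL4delN12 and none lower (6.55% and 6.58%). Of the Trithorax and H3K27 demethylase genes, 3 of 9 were higher at day 7 than at day 0 and none lower (22.2% and 10.4%), and 2 of 9 were lower and none higher with BMP4 (13.8% and 10.3%). In intermediate single cells their sum was 238 CPM without and 346 with BMP4.

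Signals known to set HOX expression differed too. At day 7, 4 of 10 genes of retinoid, WNT, FGF and GDF11 input were higher with BMP4 and 3 lower (10.3% and 13.8%). Cyp26a1 and Cyp26b1, which degrade retinoic acid, were at 36.8 and 9.49 FPKM with BMP4 and 7.18 and 1.499 without. Cyp26b1 had been at 46.2 at day 0. In JGE Cyp26a1 went the other way, at 6.785 with and 17.05 without BMP4, and in JGESO Cyp26b1 was again higher with BMP4 (41.8 against 9.66). Rarb, a retinoic acid receptor and target, was at 1.21 with and 3.73 without BMP4, and Fgf8 at 0 and 1.66. In intermediate single cells Cyp26a1 was at 2.31 CPM without and 27.9 with BMP4. Between the SALL4 forms at day 11, Rarb was at 11.9 with SALL4WT and 1.55 with SALL4delN12, and Gdf11, a signal of the trunk to tail transition, at 16.9 and 5.32. In JGES at day 7 Gdf11 was among the 4 genes higher with BMP4, at 12.2 FPKM with and 5.26 without it.

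Of the TALE cofactors, which bind DNA with HOX proteins, none of 9 was higher and 3 were lower with BMP4 at day 7 in JGES (10.3% and 13.8%), among them Meis1 at 1.14 against 3.66 FPKM. With SALL4delN12 at day 11, 1 of 9 was higher and 2 lower (6.55% and 6.58%). Of the region factors that are not HOX genes, Pitx1, a hindlimb gene, was at 35.3 FPKM with and 2.72 without BMP4 in JGES at day 7, and at 119 with SALL4delN12 and 14.3 with SALL4WT at day 11. The primitive endoderm markers summed to 255 and 80.1 FPKM in the first pair and to 316 and 23.3 in the second, and in single cells with BMP4 this list of region factors was at 446 CPM in PrECLCs and 28.3 in intermediate cells. The part of these cells in the values of Pitx1 was not tested.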

How the data were processed

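The authors trimmed bulk RNA-seq reads with Trim Galore 0.6.4, aligned them with HISAT2 2.2.1 and deposited FPKM values from StringTie 2.2.1 in tables of 17 and 8 libraries, and the day 7 JGES columns of the second are the same libraries rescaled. The authors deposited single-cell UMI counts (STAR, filtered in Scanpy) as a table of 30769 cells with their cell types. Of its columns, 10749 belong to no sample of this series and were not used. The authors aligned ATAC-seq and Cut&Tag reads with Bowtie2 2.4.5, merged Cut&Tag replicates and deposited peak lists from MACS 1.4.2 on mm10, whose score column is a p-value on a log scale. Tool versions come from the submitters' processing notes.

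Python 3.11.15 with pandas 2.3.3 and SciPy 1.17.1 was used. Bulk differences are of log2(FPKM + 1), which understates the change of low genes, among genes at 1 FPKM or more in either library, and a difference of at least 1 counts as higher or lower. UMI counts were summed per cell type and divided by that group's total (CPM), ratios use genes with at least 50 UMIs in either group and a floor of 3 counts, and intervals are exact at 95%. Doublets were not called again. Promoters are 2000 bases to each side of 1 start per gene in GENCODE (mm10), and any overlap counted. The start is that of the gene's main transcript (tagged APPRIS principal), or the gene start where no transcript has that tag. For some members, such as Hoxc5, Hoxd4 and Hoxa10, it is not the gene start. Named were the 2 highest members of each cluster at day 0, up to 6 members with the largest differences per direction and comparison, the Cdx genes, the 8 members with most UMIs and those with the largest ratios, and up to 4 genes per list. Other members named beside them were chosen after their values were seen. The calculation was tested on simulated data. The members, lists and tests were chosen with earlier results of these data known. No sequencing depth is given for the FPKM values. Alternatives tried were other filters, pseudocounts, scalings, thinned cells and peak rules. Results for 1 member and 1 listed gene are not reported here by name.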

Additional observations from a re-analysis of the deposited data

Results flagged for a closer look

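Several members differed between libraries with and without BMP4 in opposite directions in different settings. These were picked out because one setting passed a log2(FPKM + 1) difference of 1 upward and another downward. With 1 library per group the difference between settings was not tested.

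Hoxb13 was lower with BMP4 in JGES at day 7 (-2.74) and higher in JGEO (1.17). Hoxc9 was higher in JGE (1.68), and lower in JGES (-1.04) and in JGEO (-1.08). Cdx1 was higher with BMP4 in JGE (2.06) and lower in JGES (-1.29). Across days of the JGES series, Hoxc11 was lower with BMP4 at day 1 (-2.19) and higher at day 3 (1.12), with values from 0 to 3.55 FPKM. Hoxd4 was higher at day 3 (1.24) and lower at day 5 (-1.88) and day 7 (-1.12). Hoxd10 was higher at day 5 (1.06) and lower at day 7 (-1.10).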

How the results depend on the processing

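No paired analysis by replicate was possible because each group is 1 library, and no replicate could be left out. Libraries matched by day or factor set were compared pair by pair, as the counts of the same direction in all 4 pairs give. Counts of members past the fold depended most on the treatment of low values. With a pseudocount of 0.1 in place of 1, BMP4 in JGES moved 5 members at day 1 and 13 at day 3, in JGE 15 (12 of them lower) and in JGESO 17. Between the SALL4 forms it was 13, 16, 22 and 17 at days 1, 5, 9 and 11, and between days 11 and 1 it was 7 with SALL4WT and 16 (13 of them lower) with SALL4delN12. With genes at 5 FPKM or more, BMP4 in JGES moved 0 at day 1, 3 at day 3 (where more were then lower than higher, the reverse of the main count), 11 at day 5 and 9 at day 7. It moved 6 in JGESO, 8 differed between JGES and JGE, 6 between the SALL4 forms at day 11 and 5 between days 1 and 0 in JGES. With that limit fewer members could be compared in all 4 pairs, and those lower in each were 12 of 15 with SALL4delN12 and 5 of 9 with BMP4. With peaks scoring 100 or more, members with an ATAC-seq peak were 6 at day 1 with SALL4WT and 13, 9, 13 and 14 at days 1, 5, 9 and 11 with SALL4delN12. Those with a SALL4 peak were 2 with SALL4WT and 7 with SALL4delN12, the reverse of the order without that limit, and with an H3K27ac peak 5 and 11 (38.5% and 51.6% of all genes). Counted without regard to direction, the other counts stayed within 1.5 times under these settings, those of the comparisons added after seeing the data included. So did all without the low filter and with libraries scaled to the same median ratio. Peak counts did with promoters of 500 bases to each side and with at least 50% of a peak required. By direction some small counts moved more. Without the low filter, members higher with SALL4delN12 at each of the 4 days went from 1 to 4. With genes at 5 FPKM or more, those higher at day 7 than at day 0 went from 6 to 3 without BMP4 and from 2 to 0 with it. With a pseudocount of 0.1, those higher in JGESO than in JGEO went from 2 to 5. No single member's value changed direction. In single cells, thinning moved 5 of 20 and a mean over cells 4 of 21 values by more than their interval.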
